A study of Bos taurus with 20 samples.

Results

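The genes described here encode the proteins of the cytosolic ribosome, measured in Musculus longissimus dorsi, the long muscle of the back, of 20 bulls of an F2 cross between Holstein and Charolais cattle. They were chosen by gene symbol alone, as the probe sets whose single symbol in the platform annotation starts with RPL, RPS or RPLP and a number, or is RPSA, without the kinases of RPS6 and without symbols ending in L1. This rule found 94 probe sets of the 24128 on the array, for 67 genes, and the probe set with the highest mean over the 20 arrays stands for each gene. Of the 67 genes, 25 encode proteins of the small subunit and 40 proteins of the large subunit, with RPLP0 and RPLP2 of the stalk among the latter. The remaining 2 carry such a symbol but are no subunit: RPS19BP1, a protein that binds RPS19, and RPL15P, a pseudogene in RefSeq. Of 79 symbols of structural ribosomal proteins looked for, 16 had no probe set with a single symbol and were not analysed here, among them RPLP1, RPS4X, RPS27A, RPL6 and RPL41.

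The bulls were divided by intramuscular fat (IMF), the fat between and within the bundles of fibres, into 10 animals of high and 10 of low IMF content, with 1 Affymetrix GeneChip array per bull. Ages, feeding and the IMF contents themselves are not given in the labels used here. The sample titles number the animals with a leading S for 5 of each IMF group and without it for the other 5, and no label explains this letter. These sets are called S and no S titles here, and every IMF difference is given with the title kind in the model. Values are log2(intensity + 1), differences are on this log2 scale, and a gene passed the test when its adjusted p over all tested probe sets in limma was under 0.05.

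A ribosome reads messenger RNA with its small subunit and joins amino acids in its large subunit. Each subunit holds its proteins mostly in single copy, and the cell makes them in matched amounts. Most messenger RNAs of ribosomal proteins begin with a terminal oligopyrimidine (TOP) motif, through which mTORC1 and LARP1 adjust their translation to nutrients and growth signals. In muscle, the content of ribosomes sets how much protein a fibre can make, and RPL3L, a copy of RPL3 found mainly in striated muscle, takes the place of RPL3 in part of the ribosomes of mature fibres.

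Array medians ran from 51.6 to 67.7 intensity units, and high IMF animals 6 and 9, both with S titles, had the lowest. The 18 hybridisation control probe sets, which report labelled RNA added to each sample before it goes on the array, were lower in S arrays in all 18 cases by a median of 0.65, and 13 of them did not overlap between S and no S arrays. Their mean lay between 10.15 and 10.80 in S arrays and between 10.89 and 11.05 in no S arrays. The 24 controls added to the RNA before labelling went both ways, with a median of +0.34 for S minus no S, a range of −0.98 to +1.03 and 9 of 24 lower in S arrays. Of these controls 6 were higher and 1 lower in S arrays without overlap. The log2 ratio of the 3′ to the 5′ probe set of actin, a sign of RNA quality, ran from −0.74 to −0.17 in S arrays and from −0.37 to 0.01 in no S arrays. Albumin exceeded 2000 intensity units on 4 arrays, those of low IMF animal 3 and high IMF animals 6, 8 and 10. The 12 skeletal muscle markers on the array, such as ACTA1 and CKM, summed to between 17.24 and 17.46 log2 units in every animal.

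All 67 genes passed the filter that left out the dimmest 40% of probe sets. Their probe sets were bright: 59 had a mean above 12 log2 units, and 62 lay in the brightest 5% of the 14409 tested probe sets. Within the 4 combinations of IMF group and title kind the animals differed little. The median gene had a residual SD of 0.13 between animals, against 0.25 for all tested probe sets and 0.13 for the 414 tested probe sets with a mean above 12, to which those 59 belong. RPS15 varied least, with an SD of 0.07, and RPL37 most, with 0.41. RPL37 and RPS19 were the dim exceptions, with means of 6.06 and 6.42.

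None of the 67 ribosomal protein genes passed the test between high and low IMF muscle. Of all 14409 tested probe sets 0 passed (0%) in limma, with 1057 at an unadjusted p under 0.05 (7.34%), of which 2 stood for ribosomal protein genes. The lowest adjusted p of a ribosomal protein gene was 0.676. The differences were small: the median was −0.05 log2 units, and the median standard error of a gene was 0.07. Values were lower in high IMF for 56 of the 67 genes, beside 59.8% of all tested probe sets and 73.9% of those with a mean above 12. After each array was centred on its median, 43 of the 67 were lower and the median was −0.01. Beside this, 6676 of all 14409 tested probe sets and 195 of the 414 with a mean above 12 were then lower. After quantile normalization 37 of the 67 were lower.

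In the small subunit 22 of 25 genes lay below 0 for high minus low IMF, and the median difference was −0.06. RPS2, which lies where the messenger RNA enters the small subunit, had the lowest p of them, each gene taken by its brightest probe set. It ran from 12.86 to 13.34 with a median of 13.12 in high IMF and from 13.03 to 13.43 with a median of 13.23 in low IMF. The groups overlapped over most of their range, although 9 of 10 high IMF animals lay below the low IMF median. Its difference was −0.15 (SE 0.07, limma p = 0.044, adjusted p = 0.676), with −0.20 among S and −0.10 among no S animals. RPS12 showed the like pattern, with 9 of 10 high IMF animals below the low IMF median and a difference of −0.10 (SE 0.06, limma adjusted p = 0.689). RPS29, a small zinc-binding protein, differed by −0.12 (SE 0.06, limma adjusted p = 0.676) and RPS13 by −0.09. RPS19, mutated in the inherited anaemia of Diamond and Blackfan, had a value of +0.11 (SE 0.15).

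Of the 40 large subunit genes 32 lay below 0, and the median difference was −0.04. RPL10, which is added late and is needed for the subunits to join, differed by −0.10 (SE 0.06) and RPL28, a large subunit protein without a bacterial counterpart, by −0.09 (SE 0.06). On the other side stood RPL37 at +0.40 (SE 0.18, limma p = 0.034, adjusted p = 0.676). Its high IMF animals ran from 5.80 to 6.86 with a median of 6.17 and its low IMF animals from 5.01 to 6.54 with a median of 5.74, so the groups overlapped here too. RPL3, which shapes the centre where peptide bonds form, ran from 10.23 to 11.38 with a median of 10.98 in high IMF and from 10.45 to 11.24 with a median of 10.63 in low IMF. Only 1 of 10 high IMF animals lay below the low IMF median, and the difference was +0.17 (SE 0.11, limma adjusted p = 0.718). RPL7A had +0.03 (SE 0.07).

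**Figure D1:**
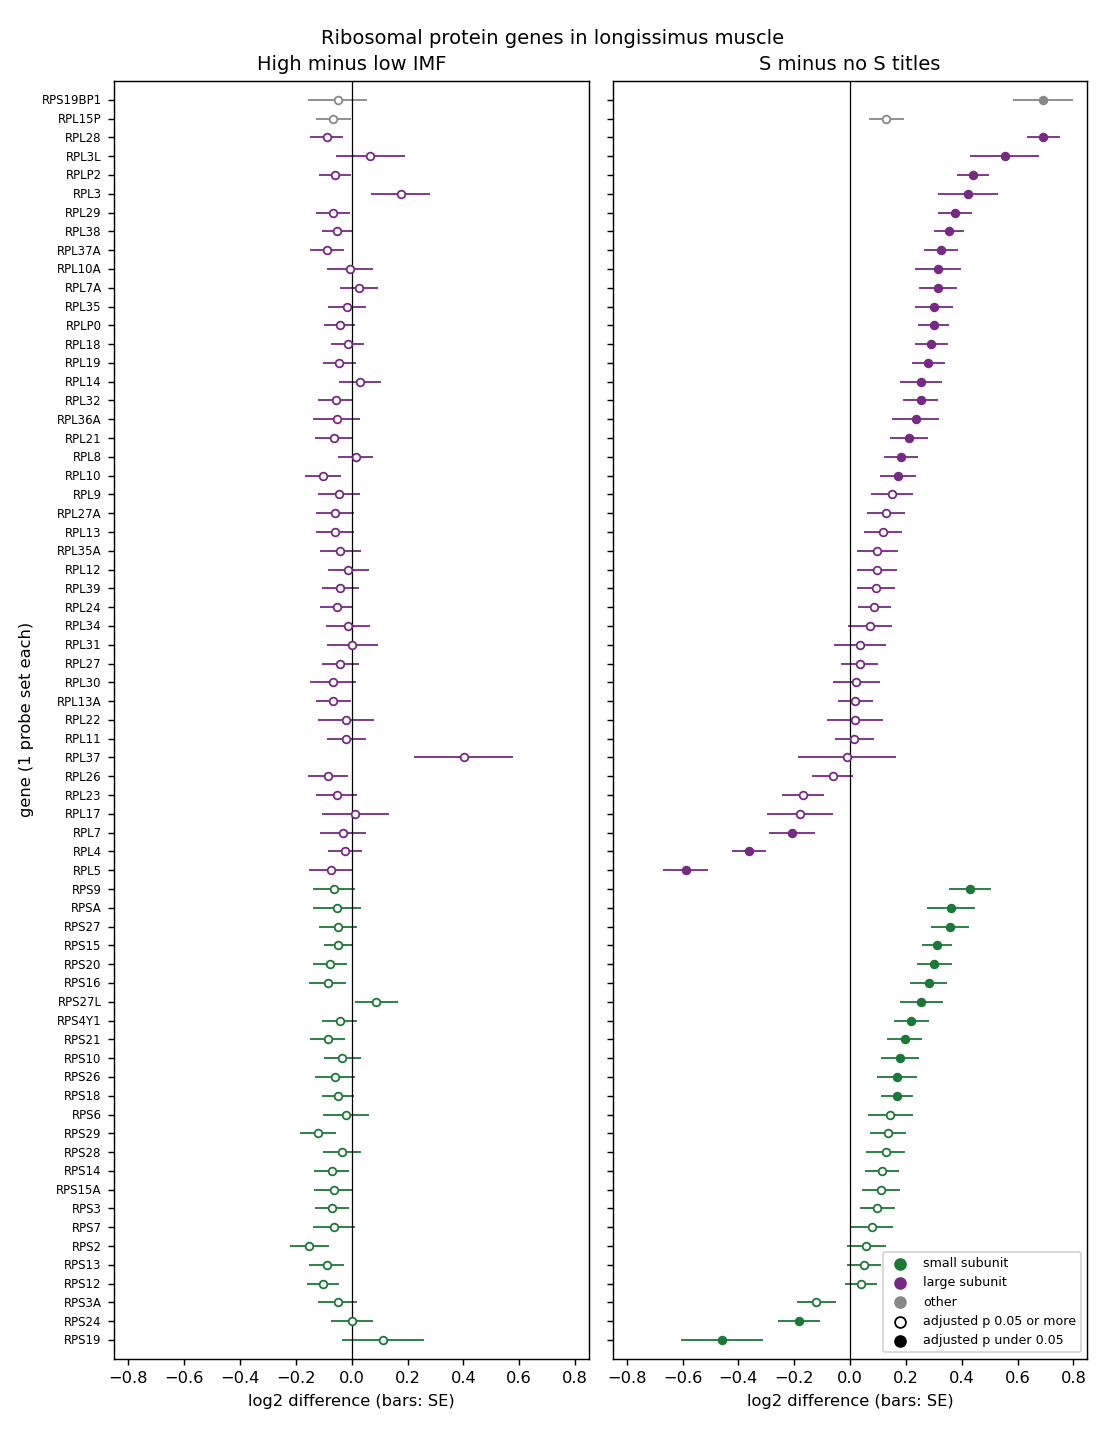
Log2 difference with its standard error for each of the 67 genes, high minus low IMF at left and S minus no S titles at right, ordered within each subunit by the right panel. Filled points have an adjusted p under 0.05 in limma: there are 0 at left and 37 at right, where RPL28 lies highest and RPL5 lowest.

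Within each title kind the IMF difference was again small and passed for 0 genes. Among S animals 46 of 67 genes were lower in high IMF, beside 67.5% of all tested probe sets, and among no S animals 58 of 67, beside 47.4%. The median was −0.05 in both as deposited. After centring they differed in sign. Among S animals 18 of 67 genes were then lower with a median of +0.04, beside 7108 of all 14409 tested probe sets. Among no S animals 59 of 67 were lower with a median of −0.05, beside 6881 of 14409. Unadjusted p-values under 0.05 were found for 3 genes among S animals, beside 9.9% of all tested probe sets, namely RPL37 (+0.65), RPS19 (+0.47) and RPL28 (−0.17), and for 0 genes among no S animals, beside 3.38%. Over the 67 genes the IMF differences of the S and no S animals, which share no array, had a correlation of 0.07 across genes, with the same sign in 47 genes (70.1%, against 52.4% of all tested probe sets). Genes are not independent replicates, and this correlation is a description. Most genes lay below 0 in both title kinds, 46 and 58 of 67, so the same sign is frequent through that shared direction. The agreement was taken on the values as deposited only.

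For the difference between these 2 IMF contrasts 0 of 14409 probe sets passed in limma (0%), 769 had an unadjusted p under 0.05 (5.34%), and RPS19 was the only ribosomal protein gene among them. RPS19 in high IMF was 6.05, 6.55, 6.61, 6.70 and 6.74 in the no S animals and 6.05, 6.17, 6.38, 6.46 and 7.09 in the S animals. In low IMF it was 6.65, 6.67, 6.85, 6.86 and 6.86 in the no S animals and 5.43, 5.91, 6.08, 6.17 and 6.20 in the S animals. The low IMF animals thus split by title kind without overlap, and the high IMF animals did not. The difference between the contrasts was 0.72 (SE 0.25, limma p = 0.00998, adjusted p = 0.866), on a dim probe set. RPL37 had +0.50 (SE 0.35), RPL22, RPL31, RPL23 and RPS24 between +0.17 and +0.24, and RPL28, RPS16, RPSA, RPL10 and RPL18 between −0.18 and −0.10. None of these 10 had an unadjusted p under 0.05, and RPL3L with −0.21 (SE 0.25) had none either. The sign of this contrast over the genes depended on the scaling, with 36 of 67 below 0 as deposited, beside 69.3% of all tested probe sets. After centring 8 of 67 were below 0, beside 7876 of all 14409 tested probe sets and 178 of the 414 with a mean above 12.

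**Figure D2:**
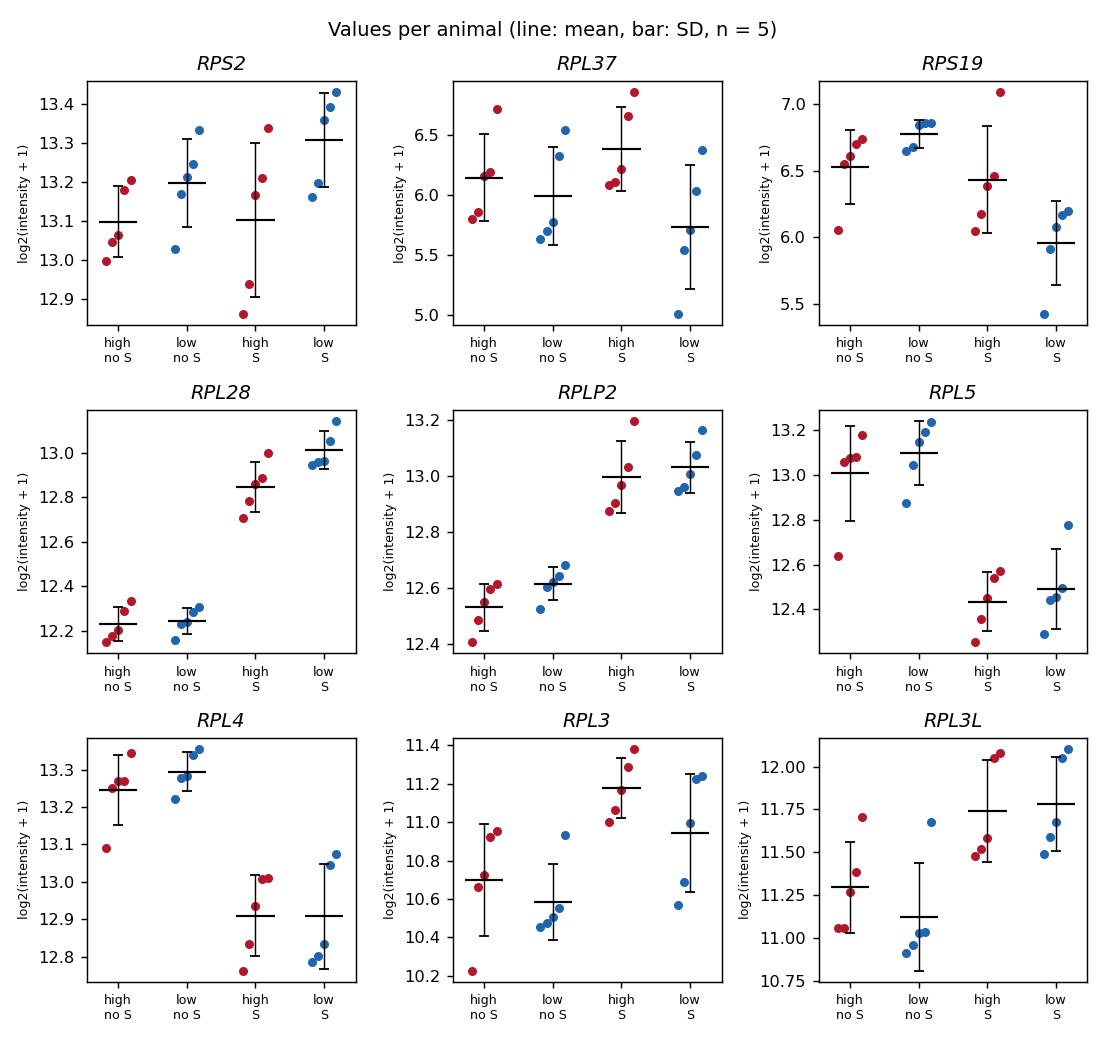
Log2(intensity + 1) of 9 genes in each animal, by IMF group and title kind, with the mean and SD of the 5 animals. RPL28 and RPLP2 are higher and RPL5 and RPL4 lower in the S animals of both IMF groups, while RPS2, RPL37 and RPS19 overlap between high and low IMF.

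Between the title kinds many genes passed. Of the 67 genes 32 were higher and 5 lower in S animals, in all 55.2%, beside 68.3% of all 14409 tested probe sets. Over all tested probe sets 33.4% were higher and 34.8% lower. The median difference was +0.14 log2 units for the 67 genes, −0.00252 for all tested probe sets and +0.04 for all probe sets with a mean above 12. Only 10 of the 67 genes had a value below 0, beside 50.1% of all tested probe sets. After centring 39 genes were higher and 3 lower, with a median of 0.18. Of all 14409 tested probe sets 5217 were then higher and 4760 lower, with a median of +0.04. For those with a mean above 12 the centred median was +0.08. Animals, RNA extraction, labelling and arrays may all differ between the title kinds, and the hybridisation controls moved with them, so that a difference between animals and a difference between array runs cannot be told apart. In bulk muscle a lower value also does not tell fewer cells of a type from less RNA per cell.

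In the small subunit 12 genes were higher and 2 lower in S animals. RPS9, which with RPS2 and RPS3 lines the entry of the messenger RNA, ran from 11.51 to 12.03 with a median of 11.75 in no S and from 11.94 to 12.43 with a median of 12.21 in S animals, a difference of 0.43 (SE 0.07, limma adjusted p = 3.92e-05). RPS15, needed for the export of the small subunit from the nucleus, lay between 12.86 and 12.96 in no S and between 13.04 and 13.36 in S animals. Its groups did not overlap, and the difference was 0.31 (SE 0.05, limma adjusted p = 2.90e-05). RPS27 also did not overlap, with a highest no S value of 12.71 and a lowest S value of 12.72, and rose by 0.36 (SE 0.07). RPSA, which also serves as a laminin receptor at the cell surface, rose by 0.36 (SE 0.09), and RPS20 and RPS16 by 0.30 and 0.28. RPS6, the substrate of the S6 kinases, had a value of +0.14 that did not pass (SE 0.08, limma adjusted p = 0.124). Lower in S animals were RPS24, at −0.18 (SE 0.08, limma adjusted p = 0.036), and the dim RPS19, at −0.46 (SE 0.15, limma adjusted p = 0.00896), with −0.10 among high IMF and −0.82 among low IMF animals.

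In the large subunit 19 genes were higher and 3 lower. RPL28 showed the largest rise of the 67 genes. It lay between 12.15 and 12.33 with a median of 12.24 in no S animals and between 12.71 and 13.15 with a median of 12.95 in S animals, far apart in both IMF groups. The difference was 0.69 (SE 0.06, 1.62-fold, limma adjusted p = 3.99e-09), with 0.62 among high IMF and 0.77 among low IMF animals. RPL29 rose by 0.38 (SE 0.06) and RPL38, whose loss in mice disturbs translation of Hox messenger RNAs, by 0.35 (SE 0.05), both without overlap. In all, 6 genes were higher without overlap between the title kinds (RPL28, RPL29, RPL38, RPLP2, RPS15 and RPS27), beside 10.4% of all tested probe sets, and RPL4 alone was lower without overlap, beside 9.27%.

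The stalk is the flexible arm of the large subunit that recruits translation factors. Both of its measured proteins rose in S animals. RPLP2 lay between 12.41 and 12.68 with a median of 12.60 in no S and between 12.87 and 13.20 with a median of 12.99 in S animals, a difference of 0.44 (SE 0.06, 1.36-fold, limma adjusted p = 1.38e-06). RPLP0, which anchors the stalk to the ribosome, lay between 12.63 and 12.81 in no S and between 12.81 and 13.13 in S animals. Its ranges met at 12.81, with a difference of 0.30 (SE 0.05, limma adjusted p = 7.16e-05).

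RPL5 and RPL4 went the other way. RPL5, which with RPL11 and the smallest ribosomal RNA forms a particle that can restrain MDM2 and so raise p53, ran from 12.64 to 13.24 with a median of 13.08 in no S and from 12.25 to 12.78 with a median of 12.45 in S animals. The difference was −0.59 (SE 0.08, 0.665 times the no S level, limma adjusted p = 1.84e-06), with −0.57 among high IMF and −0.61 among low IMF animals. RPL11, its partner, had +0.01 (SE 0.07) in the same arrays. RPL4, which lines the tunnel through which the new chain leaves, lay between 13.09 and 13.35 in no S and between 12.76 and 13.08 in S animals, a difference of −0.36 (SE 0.06, limma adjusted p = 2.58e-05). RPL7 was lower, at −0.21 (SE 0.08, limma adjusted p = 0.032) and, with RPS24, lost the call after centring, at −0.17 (adjusted p = 0.055) and −0.14 (adjusted p = 0.075). Without high IMF animal 9, without low IMF animal 1, 3, 6 or 7, or without high IMF animals 6 and 9, 3 genes were lower in place of 5. RPL23 just missed the threshold at −0.17 (limma adjusted p = 0.051).

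The difference between title kinds was also taken within each IMF group, and these share no array. Among high IMF animals 20 genes were higher and 2 lower in S, where 53.8% of all tested probe sets passed, 23.8% higher and 30% lower. Among low IMF animals 24 were higher and 5 lower, where 55% of all passed, 28.8% higher and 26.2% lower. Across the 67 genes the differences of the 2 IMF groups had a correlation of 0.85, against 0.90 across all tested probe sets, and the sign was the same in 61 genes (91.0%, against 87.7%). These too are descriptions across genes. Of the 32 genes that rose over all animals, those that did not pass within high IMF were RPSA, RPS10, RPS16, RPS18, RPS21, RPS26, RPS27L, RPS4Y1, RPL8, RPL10, RPL21 and RPL36A. Those that did not pass within low IMF were RPS10, RPS21, RPS26, RPL3, RPL8, RPL14, RPL32 and RPL36A. Without the 4 arrays with high albumin 22 of the 67 genes were higher. The share of all tested probe sets that passed in that run is not given here, so this count has no background. Among the genes given by name under the rule for named genes, RPL10 (0.13), RPL21 (0.19), RPL36A (0.20) and RPS4Y1 (0.17) were those that lost the call.

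**Figure D3:**
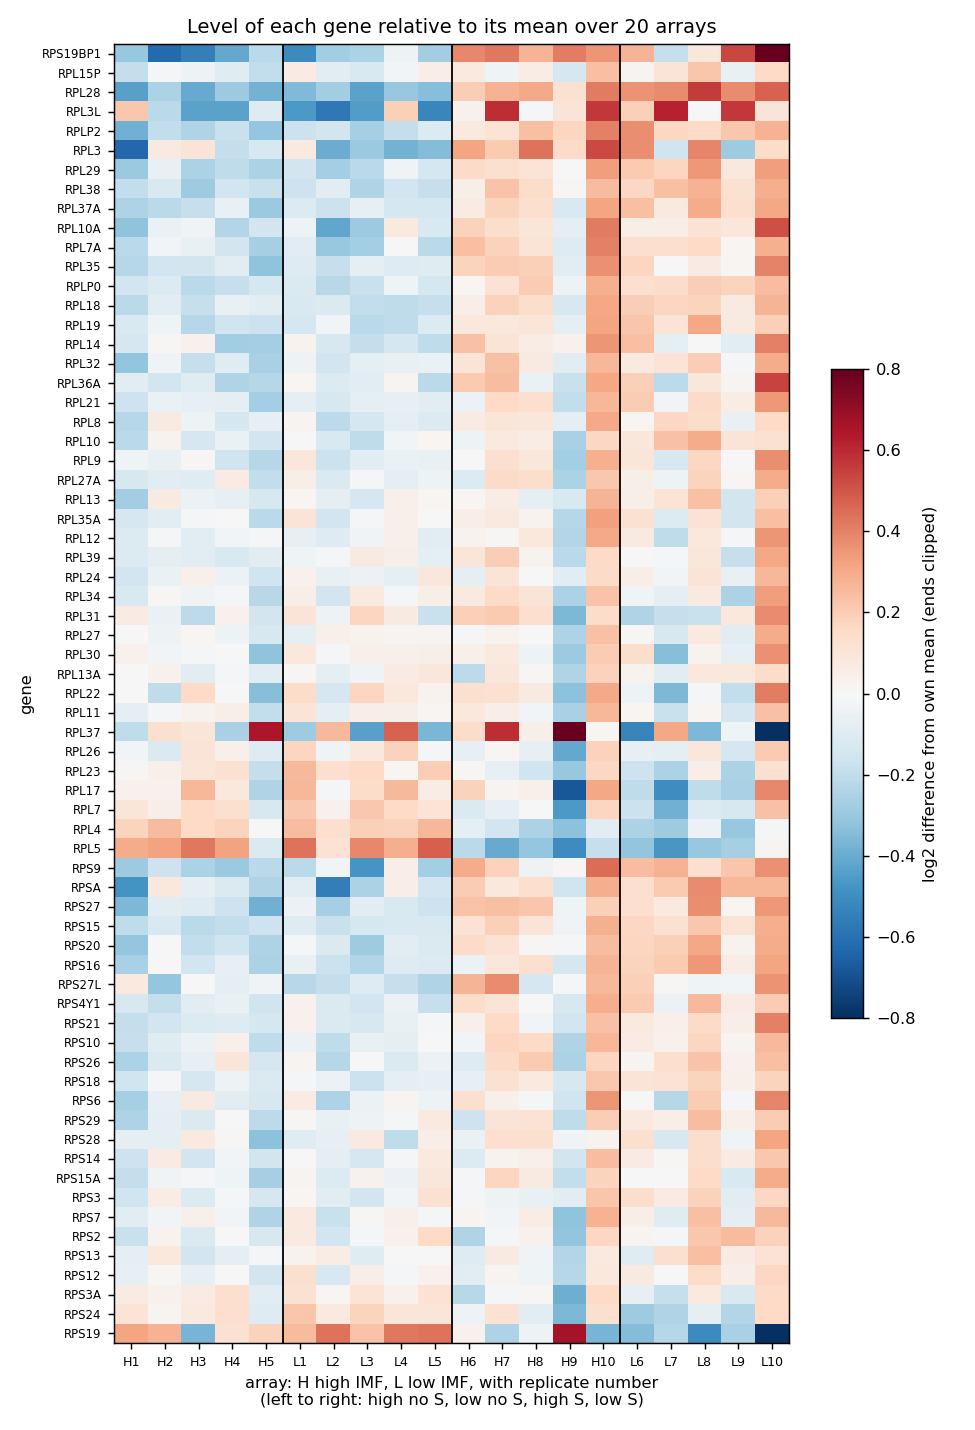
Each gene's log2 value on each array relative to its mean over the 20 arrays, with genes in the order of the plot of differences and arrays grouped by IMF and title kind (H high, L low IMF). Most genes turn from blue in no S to red in S arrays, RPL5 and RPL4 the reverse, and whole columns such as L10 and H10 are red and H9 is blue for most genes.

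Beyond these groups, the genes rose and fell together from animal to animal. With the means of the 4 combinations of IMF group and title kind removed, the mean correlation between pairs of the 67 genes over the 20 arrays was 0.51, against 0.07 for all tested probe sets and 0.16 for those with a mean above 12. After centring, the same values were 0.50, 0.01 and 0.22. Each gene was also set against the mean of the other members, and the median of these correlations was 0.79, with 47 of 67 genes at 0.7 or more. The points share their arrays, so that anything that changes an array as a whole enters every pair. A few animals carried much of it: the value fell to 0.43 without high IMF animal 9 and to 0.28 without high IMF animals 9 and 10 and low IMF animal 10, when it was 0.06 for all tested probe sets and 0.10 for those with a mean above 12.

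The level of an animal is given here as the median over the 67 genes of each gene's distance from its own mean. It was highest in low IMF animal 10 with 0.27 and high IMF animal 10 with 0.26, where 64 of 67 genes lay above their means. Low IMF animal 8 followed with 0.15, and all 3 have S titles. On these arrays the median over all tested probe sets was 0.06, 0.04 and 0.02, and over those with a mean above 12 it was 0.10 each. The lowest levels were −0.17 and −0.16 in high IMF animals 5 and 1, where all tested probe sets stood at 0.01 each, and −0.15 in high IMF animal 9. High IMF animal 9 differed from the other low ones, since all tested probe sets and those with a mean above 12 stood at −0.15 there as well.

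**Figure D4:**
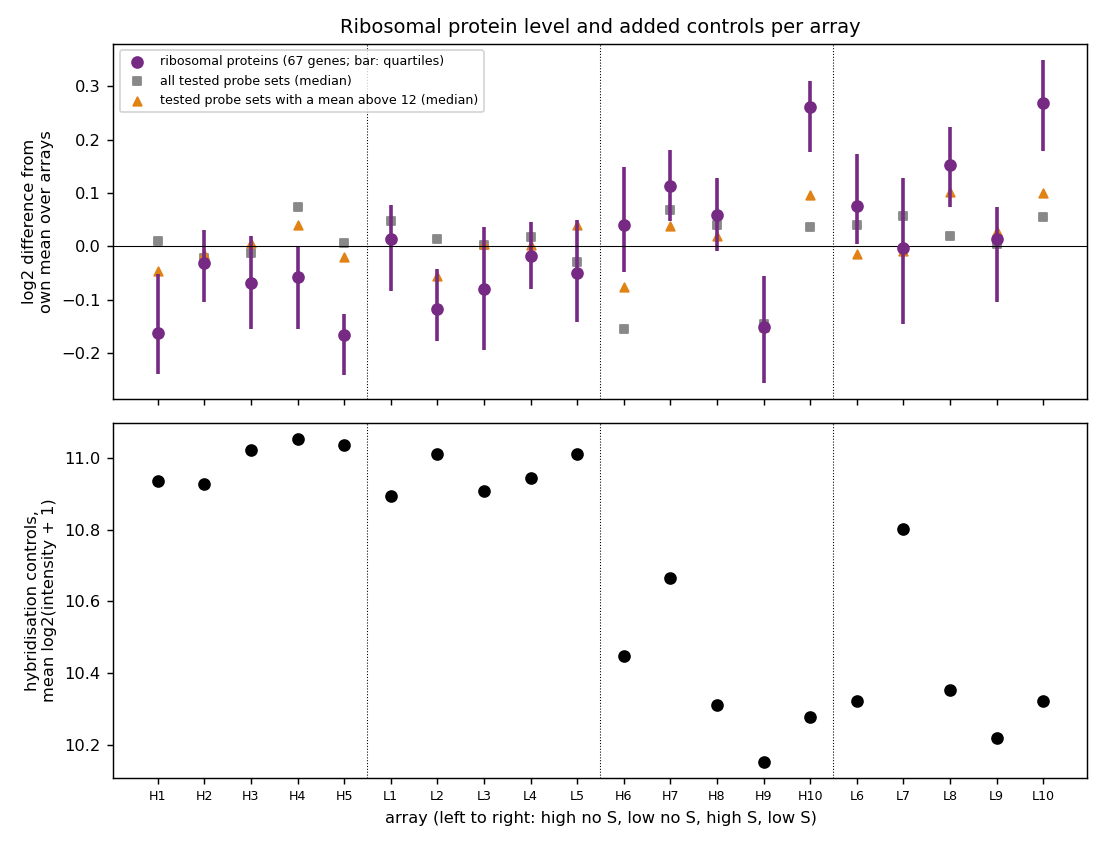
Above, the median distance of the 67 genes from their own means on each array with its quartiles, beside the medians of all tested probe sets and of those with a mean above 12. Below, the mean of the 18 hybridisation controls: S arrays at right are all below the no S arrays, and the gene levels of H10 and L10 rise above both other sets.

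Of the 67 genes, 5 correlated with the mean of the others at under 0.4. They were the dim RPS19 (−0.84) and RPL37 (−0.63), the copies RPL3L (−0.02) and RPS27L (0.36), and RPS19BP1 (0.16), which is no part of the ribosome. The negative values of the dim pair shrank to −0.24 and −0.19 after centring. RPL3L, RPL17, RPL3 and RPS19BP1 also varied most between animals after RPL37 and RPS19, with residual SDs between 0.24 and 0.29.

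The copies of ribosomal protein genes are of interest in muscle because they can change the make-up of the ribosome. RPL3L ran from 10.91 to 11.70 with a median of 11.06 in no S and from 11.48 to 12.10 with a median of 11.63 in S animals, and rose by 0.55 (SE 0.12, limma adjusted p = 0.00052). RPL3 ran from 10.23 to 10.96 with a median of 10.61 in no S and from 10.57 to 11.38 with a median of 11.12 in S animals, and rose by 0.42 (SE 0.11, limma adjusted p = 0.00164). The muscle copy and the general gene thus moved in the same direction between title kinds, with overlap in both. Neither passed between IMF groups, where RPL3L had +0.07 (SE 0.12). RPS27L, a close copy of RPS27 that p53 can induce, rose by 0.25 (SE 0.08) in S animals, as did RPS27 itself. RPS4Y1, which carries the name of the Y-linked copy of RPS4 in primates, rose by 0.22 (SE 0.06), and RPL36A by 0.23 (SE 0.08). RPL39 had +0.09 (SE 0.07), which did not pass. Near-identical copies and processed pseudogenes may share probes: 14 of the 67 probe sets have a name ending in a or x, where a stands for probes shared by several transcripts of a gene and x for probes that may also bind other transcripts, RPLP0, RPS2, RPS4Y1 and RPL28 among them.

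RPS19BP1 rose in S animals by 0.69 (SE 0.11, limma adjusted p = 9.10e-06), from a range of 8.76 to 9.34 to a range of 9.19 to 10.28. RPL15P had +0.13 (SE 0.06), which did not pass.

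For 15 genes more than 1 probe set was tested, and these did not always go the same way. The signs differed for the IMF contrast in 7 genes and for the title contrast in 9, while in 0 genes did probe sets pass in opposite directions. RPS3, which sits at the entry of the messenger RNA and also takes part in DNA repair, had +0.10 for the title contrast on its brightest probe set, which did not pass. On another, with a mean of 8.33, it had −1.24, which did. For IMF that probe set had −0.55 (SE 0.20, limma p = 0.012, adjusted p = 0.676), the lowest p for IMF of all tested ribosomal protein probe sets. RPL15P had +0.13 on the brightest and −0.49 and −0.91 on the others, both of which passed. RPS7 had +0.08 on the brightest, and its dimmest tested probe set rose by 0.97. Also with opposite signs for the title contrast were RPL21, RPL24, RPL26, RPL32, RPS12 and RPS15A, while in RPL3, RPL9 and RPLP0 the signs were the same there. With the mean of all tested probe sets of a gene in place of the brightest, RPL15P was at −0.42 (adjusted p = 5.39e-05), RPS3 at −0.32 (adjusted p = 0.0035) and RPL26 at +0.17 (adjusted p = 0.015), each opposite to the value on the brightest probe set.

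**Figure D5:**
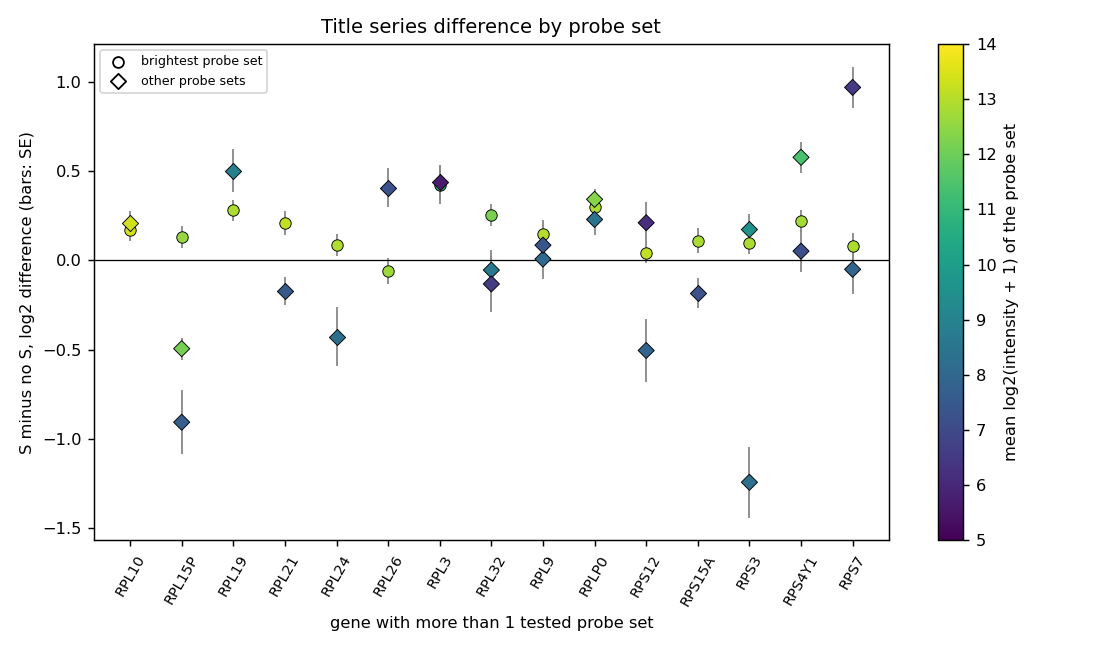
S minus no S log2 difference with its standard error for each tested probe set of the 15 genes that have several, coloured by the mean of the probe set. Circles are the brightest probe sets used above; dimmer probe sets of RPS3, RPS7, RPL15P and RPS12 lie far from them.

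Other genes of the translation machinery gave a background to these values. None passed between IMF groups in any of the lists named here. Between title kinds 68.3% of all tested probe sets passed, 33.4% higher and 34.8% lower. The shares that passed were 73.5% for mitochondrial ribosomal proteins, 80.7% for ribosome assembly and 80% for initiation factors. They were 45.5% for elongation and release factors, 62.5% for other TOP genes and 80.8% for the mTORC1 pathway with LARP1. Of 68 mitochondrial ribosomal proteins 39 were higher and 11 lower in S animals, with a median of +0.21 for the title contrast and −0.00209 for IMF. MRPL38 rose most surely, by 1.11 (SE 0.07), and DAP3 had the lowest p for IMF at +0.21 (SE 0.09). Of 83 tested genes of ribosome assembly 31 were higher and 36 lower in S animals. Nucleolin (NCL), which acts on the ribosomal RNA precursor, fell by 0.53 (SE 0.08) with S titles, and its IMF value was −0.23 (SE 0.08, limma p = 0.0099), the lowest p of its list.

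Initiation factors were higher for 13 and lower for 19 of 40 genes in S animals. EIF3J at −1.14 (SE 0.09) and EIF4A2 at −0.70 (SE 0.06) fell, and EIF4EBP1, which holds back the cap-binding protein, rose by 1.38 (SE 0.16). Of 11 elongation and release factors 1 was higher and 4 lower, with EEF1A2, an elongation factor of adult muscle, at −1.22 (SE 0.30) and ETF1 at −1.09 (SE 0.10). The EEF1A2 probe set was dim, with a mean of 7.23 beside a median of 7.32 for all tested probe sets. Its SD was 1.04 in S and 0.19 in no S animals, so its value is a weak measure of this gene. EEF2, which moves the ribosome along the message, had −0.05 (SE 0.06). Of 16 other genes whose messages are known to begin with a TOP motif 4 were higher and 6 lower, EIF3H (−0.99) and EIF3E (−0.85) most surely. Of 26 genes of the mTORC1 pathway with LARP1 13 were higher and 8 lower: MAF1 rose by 0.77 (SE 0.06) and RPS6KB2 by 0.87 (SE 0.07), and SESN1 had the lowest p for IMF at −0.52 (SE 0.15, limma p = 0.0024). FAU, whose product includes a small subunit protein, rose by 0.22 (SE 0.06), and RACK1, which sits on the small subunit, had +0.02 (SE 0.06). RPL26L1, a copy of RPL26, rose by 0.27 (SE 0.10).

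Markers of other cell types passed the test between title kinds, where 68.3% of all tested probe sets passed, and none passed between IMF groups. Their part in the values of the ribosomal protein genes was not tested. Of 8 adipocyte markers 6 were on the array and 4 were tested. Their summed level ran from 10.63 to 14.22 with a median of 11.73 in high IMF and from 10.14 to 13.15 with a median of 10.73 in low IMF, and was 11.69 in S and 10.94 in no S animals at the median. Of these 4 markers 3 were higher and 1 lower in S animals, with differences from −0.73 to +1.84. For IMF 3 lay above and 1 below 0, from −0.03 to +1.94, and 0 passed. CIDEC, a protein of the lipid droplet, was the highest in both, at +1.94 (SE 0.55) for IMF and +1.84 (SE 0.55) with S titles. Of 6 macrophage markers 4 were on the array and 3 were tested, of which 2 were higher in S animals, where their sum lay between 8.73 and 9.03 against 8.02 to 8.72 in no S animals. HBA, the only tested marker of red blood cells, rose by 0.68 (SE 0.13) with S titles. Of 6 tested fibroblast markers 2 were higher and 1 lower in S animals, of 4 endothelial markers 2 were higher, of 4 lymphocyte markers 1, and of 6 liver markers 2. The summed muscle markers differed little, with medians of 17.37 and 17.39 in high and low IMF and of 17.39 and 17.38 in S and no S animals. Taken singly, 3 of the 12 muscle markers were higher and 3 lower in S animals, with differences from −0.57 to +0.26. For IMF 11 of the 12 lay below 0, and 0 passed.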

How the data were processed

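Total RNA of each muscle was labelled and measured on 1 array per animal. The submitters' processing notes name GCOS 1.1.1 and Affymetrix Expression Console 1.1 as the software, while how probes were summarised or arrays scaled is not given. The table deposited by the authors holds an intensity on a linear scale for every probe set and array, and was not rescaled here. Values were taken as log2(intensity + 1). After 112 array controls were removed, the dimmest 40% by mean were left out (limit 5.39 log2 units), and 14409 of 24016 probe sets were tested. IMF group and title kind were fitted together, and their 4 combinations for contrasts within either, with limma 3.58.1 in R 4.3.3 (two-sided, Benjamini-Hochberg over all tested probe sets). The code was tested on simulated data. Array number limits the precision. The p-values set each difference against the spread between animals within groups, and with 1 array per animal this spread includes that between arrays. Symbols come from the platform annotation, and the identifiers of all 67 genes matched RefSeq genes, with 0 symbols changed. No genome or sequence was used here. The series text names a paired t-test, but the labels pair no animals. Named genes were those with the smallest p in each contrast and direction, the largest residual SD, copies, stalk and other known roles, and discordant probe sets, with 2 for IMF and 2 for title kind from every other list. RPS9, RPS10, RPS18, RPS20, RPS21, RPS26, RPL8, RPL14 and EEF2 were named after their values were seen. The members and lists were chosen with earlier results of these data known. Alternatives were other scalings, pseudocount, filters, probe set averages and arrays left out.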

Additional observations from a re-analysis of the deposited data

Results flagged for a closer look

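In each IMF group the highest and lowest animal of each of the 44 named genes was compared with its nearest neighbour, and 4 of 88 groups of 10 animals held a gap above the limit, where chance alone flags about 1 in 20 groups. RPL24 was highest in low IMF animal 10 at 13.20, with the next animal at 13.04. High IMF animal 9 was lowest for RPL26 at 12.26, with the next at 12.56, for RPL7 at 12.66, with the next at 12.99, and for RPS24 at 12.58, with the next at 12.84.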

How the results depend on the processing

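For IMF, 0 ribosomal protein genes passed under any alternative run. The number with lower values in high IMF, 56 as deposited, was 37 after quantile normalization and 46 to 61 when 1 array was left out. Over all probe sets, 0 to 1 passed for IMF when 1 array was left out (1 without high IMF animal 4). The methods' t-test, run without pairing, left 0 probe sets after adjustment, with 258 probe sets and 3 ribosomal protein genes at an unadjusted p under 0.05.

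For the title kinds, 32 genes were higher and 5 lower. The number lower was 3 after centring and without high IMF animals 6 and 9, 8 with the mean of all probe sets of a gene, and 3 to 6 when 1 array was left out. Among high IMF animals alone 20 were higher and 2 lower. Without the 4 arrays with high albumin 22 were higher and 7 lower, with no share over all tested probe sets given for that run. With the mean of all probe sets 6 of the 44 named genes turned their sign, of which RPL15P (−0.42), RPS3 (−0.32) and RPL26 (0.17) passed in the new direction. The number of genes below 0 in the contrast of IMF differences between title kinds, 36 as deposited, was 8 after centring, 13 after quantile normalization, 55 without the 4 albumin arrays, 11 without high IMF animals 6 and 9, and 17 to 44 when 1 array was left out (17 without high IMF animal 9, 21 without low IMF animal 10). The cause of these shifts was not tested.

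No paired analysis was possible because the labels pair no animals; the replicate numbers used here follow the order of the samples. Signal over background limits RPL37 and RPS19, the dimmest members.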
